A study of Mus musculus with 6 samples.

Results

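The peaks of methylated DNA in common myeloid progenitors (CMP) were compared with those in erythroblasts (ERY) over the 19 autosomes of the mouse, in coordinates of the build mm9. A peak is a stretch of DNA that a pulldown with the MBD2 protein enriched in a sequenced library. The CMP list held 49054 autosomal peaks and the ERY list 27266, together 76320 of the 164274 peaks in the 3 lists of the series. A CMP peak that shared at least 1 bp with an ERY peak is called kept, a CMP peak that shared none is called lost, and an ERY peak that shared none with a CMP peak is called gained. Peaks of hematopoietic stem cells (HSC), from another library, were used to say whether a position was already occupied before the CMP stage.

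All cells are labelled as adult female C57BL/6. The CMP gate on bone marrow took c-kit positive cells that lacked Sca-1 and lineage markers. Such a gate, as background, also admits granulocyte-macrophage and megakaryocyte-erythroid progenitors. The sources used here do not give the source of the erythroblasts or the number of animals pooled. Each cell type had 1 library, so no difference below has a replicate check, no test between cell types was possible, and 95% exact binomial (Clopper-Pearson) intervals cover counting error only and treat peaks as independent. The lists hold positions and no read counts, so depth is unknown, a lost peak is a position without an ERY call, and the cell labels could not be checked against expressed markers.

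DNA methylation in mammals sits mostly on the cytosine of CpG sites and is copied to the new strand at each division by the maintenance methyltransferase Dnmt1. Where copying lags behind division, methylation is diluted. Erythroblasts divide several times while they build hemoglobin and condense the nucleus before it is expelled. MBD2 is a reader protein that binds methylated CpG, and the pulldown with it recovers stretches where several methylated CpG sites stand close together.

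Close to as many CMP peaks were lost as were kept. Of the 49054 CMP peaks, 23944 were lost (48.8%, interval 48.4 to 49.3%) and 25110 were kept (51.2%, 50.7 to 51.6%). In the other direction 2075 of 27266 ERY peaks were gained (7.61%, 7.3 to 7.93%). There were thus 11.5 lost peaks for each gained one. The ERY list is much shorter than the CMP list, and most overlaps (24309) paired 1 CMP peak with 1 ERY peak. With such pairing, many CMP peaks must be lost and losses must exceed gains. The surplus of lost over gained peaks therefore follows from list length and is not a separate measure of change. In bases, lost peaks covered 18.3 Mb, or 43.4% of the CMP total of 42.1 Mb, and gained peaks covered 1.46 Mb, or 6.48% of the ERY total of 22.5 Mb. The gained share depended on how overlap was defined. It was 12.2% when 50% of both peaks had to be shared and 4.38% in the wider 50% of ERY peaks set against all CMP peaks. With the wider 50% of both lists it was 25.5%, a value raised by construction because narrower CMP peaks no longer count.

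Kept CMP peaks lay nearly centred on their ERY partners, which were narrower at the wide end. In 24309 cases 1 CMP peak faced exactly 1 ERY peak. The ERY peak of such a pair was 0.9 times as wide as its CMP partner at the median (interquartile range 0.769 to 1.03), and it was the narrower one in 70.1% of pairs. The centres of the pair lay 60.5 bp apart at the median and within 226 bp in 95% of pairs. Pairs overlap by definition, which caps this distance, so it describes only how close the centres lay within that limit. The CMP peak covered 98.9% of its ERY partner at the median, and the ERY peak covered 85.8% of its CMP partner. The ratio fell along the width scale. Pairs in the narrowest CMP quintile had median widths of 616 bp in CMP and 669 bp in ERY (ratio 1.12), those in the middle quintile 888 and 780 bp (0.878), and those in the widest quintile 1307 and 1031.5 bp (0.808). Since pairs were ordered by CMP width, part of such a slope arises whenever 2 widths are measured with error, and that part was not estimated.

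Few peaks broke up or fused. A total of 334 CMP peaks held 2 or more ERY peaks, 10 of them 3 or more, and 262 ERY peaks spanned 2 or more CMP peaks. The most divided was the CMP peak at chr17:46860147-46863696 (3550 bp), in which 4 ERY peaks covered 3226 bp. The next, with 3 ERY peaks each, were chr3:38352733-38356887, where 3355 of 4155 bp were covered, and chr15:25709262-25713104, where 3149 of 3843 bp were. At these positions most of the divided stretch was still on the ERY list. At chr5:117931431-117934642, the fifth in this order, 3 ERY peaks covered 1974 of 3212 bp.

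The width of a CMP peak went with its fate over the whole range and most steeply between 870 and 1174 bp. In the narrowest 10% of CMP peaks (211 to 556 bp) 30.1% were kept (interval 28.8 to 31.4%). The share rose slowly to 44.1% (42.7 to 45.5%) in the fifth decile (762 to 819 bp). It then rose from 54.2% (52.8 to 55.6%) at 870 to 923 bp to 65.1% (63.7 to 66.4%) at 923 to 994 bp and 76.0% (74.8 to 77.2%) at 994 to 1174 bp. Above 1174 bp it reached 80.1% (79.0 to 81.2%). Of the 516 CMP peaks over 2000 bp, 94.0% were kept (91.6 to 95.9%), and of the 82 over 3000 bp, 77 were. A wide peak reaches a shared base more easily, and requiring 50% of the CMP peak to be covered reduced the gap between the widest and narrowest decile from 50 to 41.2 percentage points.

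Gained peaks were the mirror image. In the narrowest 10% of ERY peaks (218 to 552 bp) 15.1% were gained (13.8 to 16.5%), and in the widest 10% (1104 bp and above) 2.09% (1.59 to 2.7%). The share fell at every decile between them. Gained peaks had a median width of 700 bp, kept ERY peaks 797 bp, lost CMP peaks 750 bp and kept CMP peaks 889 bp. Only 6 of the 2075 gained peaks exceeded 1500 bp.

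**Figure D1:**
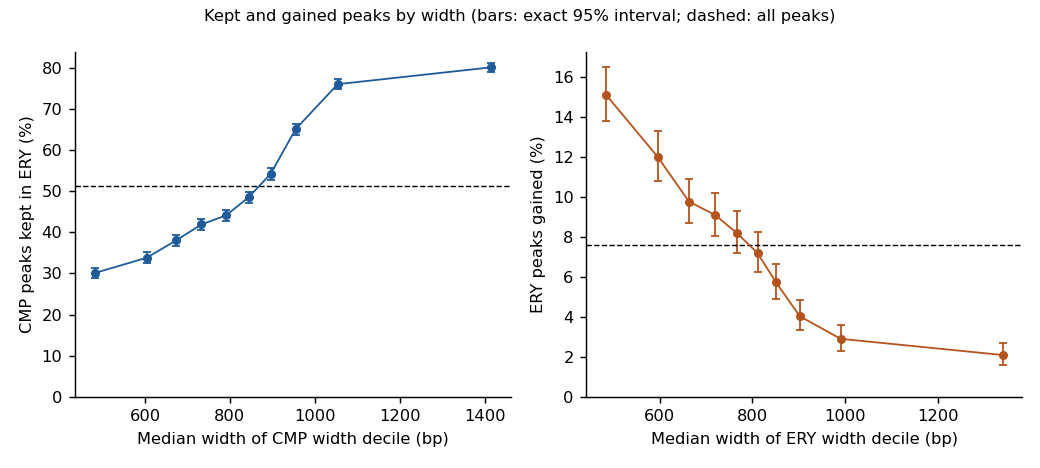
Share of CMP peaks kept in ERY (left, percent) and share of ERY peaks gained (right, percent) against the median width in bp of each width decile of that list; points are deciles, bars are exact 95% intervals and the dashed lines mark 51.2% and 7.61% for all peaks. The kept share climbs from 30.1 to 80.1% and the gained share falls from 15.1 to 2.09%.

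The stem cell list, which took no part in calling peaks lost or kept, separated the classes further. An HSC peak lay under 98.9% of kept CMP peaks (98.8 to 99%), 94.0% of lost ones (93.7 to 94.3%) and 51.8% of gained ERY peaks (49.6 to 54.0%). Read the other way, CMP peaks on an HSC peak were kept in 52.5% of 47335 cases (52.0 to 52.9%). Those off every HSC peak, which were not on the earlier list, were kept in 16.2% of 1719 (14.5 to 18.1%). The peaks off HSC were narrower, with a median of 644 bp against 825 bp. Among CMP peaks in the middle 3 width quintiles the shares were 49.6% (49.0 to 50.2%) and 17.0% (14.6 to 19.7%). A difference of similar size thus remained in this range, with CMP width restricted but not fully held. Over all widths the difference was 36.2 points, and 27.8 points when 50% of the CMP peak had to be covered by HSC peaks.

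The width of the HSC peak beneath also ordered the CMP peaks. By quintile of HSC width, from a median of 511 bp to one of 1360 bp, the kept share was 39.1, 45.8, 51.5, 57.0 and 68.8%. Wide HSC peaks lay under wide CMP peaks, so the comparison was repeated in the middle 3 CMP width quintiles. There the shares were 42.4% (41.1 to 43.7%) under the narrowest and 55.6% (54.3 to 56.8%) under the widest HSC peaks, while the median CMP width moved from 785 to 854 bp. A smaller difference in the same direction thus remained, with CMP width not fully held.

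Of the gained peaks, 1075 lay on an HSC peak and so had been on the stem cell list, were off the CMP list and were again on the ERY list. The other 1000 were on neither earlier list. The 2 kinds were of similar width, with medians of 714 and 683.5 bp. Of the 2075 gained peaks, 92 (4.43%) lay within 500 bp of a CMP peak. The median distance to the nearest CMP peak was 10539 bp (interquartile range 3325.5 to 29080 bp). A peak that moved but still overlapped would be called kept, so these distances cannot tell whether peaks shifted, which was not tested. Of the lost peaks, 707 (2.95%) lay within 500 bp of an ERY peak.

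CMP peaks with close neighbours were kept more often than lone ones. The kept share was 48.5% (48.0 to 49.1%) for the 31892 CMP peaks with no other CMP peak within 5 kb, 54.4% (53.5 to 55.3%) with 1, 58.8% (57.3 to 60.4%) with 2 and 65.8% (60.0 to 71.4%) with 4 or more. The last class holds 281 peaks. Clustered peaks were also wider, with a median of 882 bp in the last class against 801 bp for lone peaks. In the middle 3 width quintiles the shares were 47.2% (46.5 to 48.0%) for lone peaks, 50.4% (49.2 to 51.6%) with 1 neighbour and 66.7% (58.8 to 73.9%) with 4 or more, the last over 162 peaks. The difference between peaks with 2 or more neighbours and lone peaks was 11.6 points over all widths and 6.43 points in the middle widths. At a wider scale little remained in the middle widths. By quintile of CMP peaks within 100 kb, the kept share there moved from 47.0% (45.7 to 48.3%) in the sparsest to 50.7% (49.3 to 52.0%) in the densest.

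**Figure D2:**
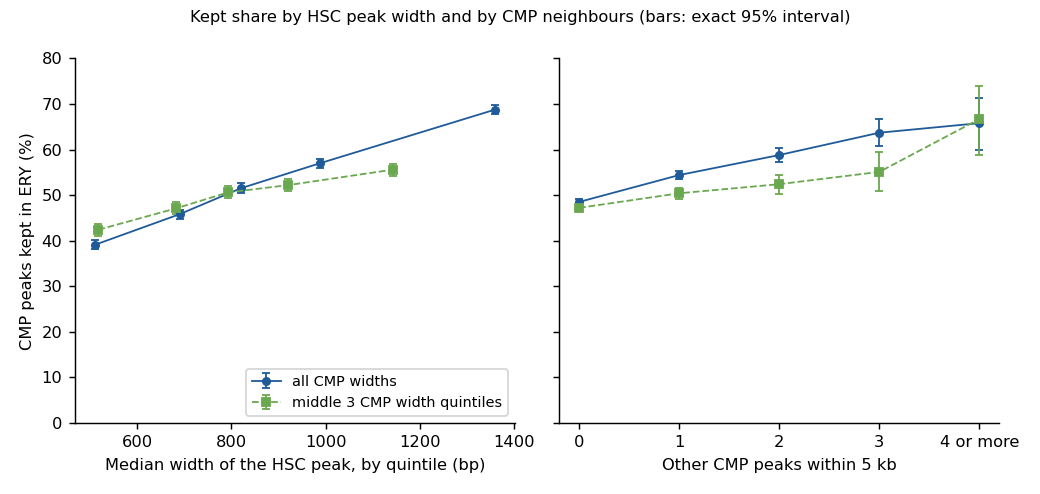
Share of CMP peaks kept in ERY (percent) against the median width in bp of the HSC peak beneath, by quintile (left), and against the number of other CMP peaks within 5 kb (right); circles show all CMP widths, squares the middle 3 CMP width quintiles, and bars exact 95% intervals. In both panels the kept share rises, from 39.1 to 68.8% and from 48.5 to 65.8% over all widths, and less steeply in the middle widths on the left.

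Autosomes differed little in their kept share. It ranged from 47.7% on chromosome 14 (868 of 1821 peaks, 45.4 to 50%) to 54.0% on chromosome 5 (2074 of 3839, 52.4 to 55.6%), with a standard deviation of 1.94 points over the 19 chromosomes. Chromosomes 5, 10 and 17 had intervals wholly above the share of all autosomes, with 54.0, 53.8 and 53.7% kept. Chromosomes 1, 3, 6 and 14 had intervals wholly below it, with 48.2, 48.7, 48.1 and 47.7%. Gained peaks made up 10.8% of ERY peaks on chromosome 3 (149 of 1374, 9.25 to 12.6%) and 9.98% on chromosome 14 (8.16 to 12.0%), and 6.21% on chromosome 15 (83 of 1337, 4.97 to 7.64%). Chromosomes with more CMP peaks per Mb kept a larger share of them (Pearson r 0.723 and Spearman rho 0.681 over 19 chromosomes). They also had wider CMP peaks, and the median CMP width on a chromosome went with its kept share about as closely (Pearson r 0.69). These values describe chromosomes of the same libraries.

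**Figure D3:**
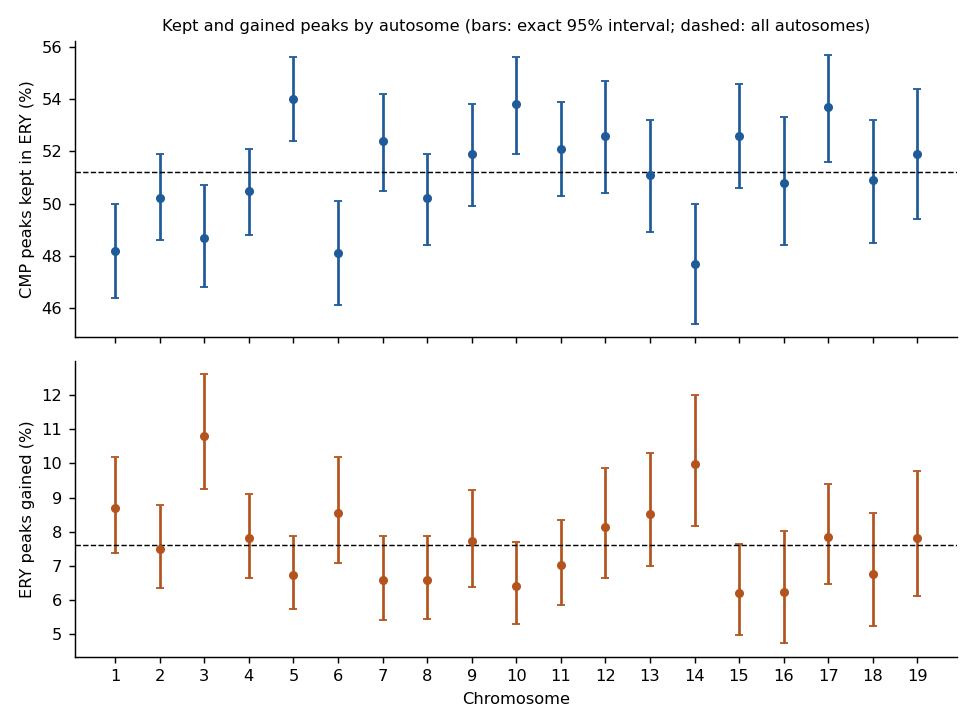
Share of CMP peaks kept in ERY (upper panel, percent) and share of ERY peaks gained (lower panel, percent) on each of the 19 autosomes; points are chromosomes, bars exact 95% intervals, dashed lines the shares over all autosomes, and the vertical axes do not start at 0. Kept shares lie between 47.7% on chromosome 14 and 54.0% on chromosome 5, and gained shares between 6.21% on chromosome 15 and 10.8% on chromosome 3.

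Along the chromosomes the kept share was nearly level. In the 10 Mb nearest the distal end 52.8% of 6863 CMP peaks were kept (51.7 to 54.0%), in the proximal 10 Mb 50.4% of 3261 (48.7 to 52.2%), and between the ends 51.0% of 38930 (50.5 to 51.5%). The distal difference of 1.89 points fell to 0.172 points with end zones of 5 Mb. Gained peaks made up 6.19% of ERY peaks in the distal 10 Mb (5.45 to 7.0%), 6.52% in the proximal 10 Mb (5.41 to 7.77%) and 7.95% between the ends (7.6 to 8.32%). With zones of 5 Mb they made up 6.25% at the distal end, 7.6% at the proximal end and 7.7% between.

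Smaller stretches varied more. They hold far fewer peaks than a chromosome, so counting error alone widens their spread, and its part was not estimated. Of the 311 windows of 1 Mb with at least 40 CMP peaks, the median kept 55.4% (interquartile range 50 to 60.6%). The 5 lowest were chromosome 8 from 121 to 122 Mb with 11 of 43 kept (25.6%, 13.5 to 41.2%), chromosome 8 from 48 to 49 Mb with 20 of 63 (31.7%), chromosome 6 from 145 to 146 Mb with 13 of 40 (32.5%), chromosome 11 from 96 to 97 Mb with 20 of 58 (34.5%) and chromosome 5 from 119 to 120 Mb with 17 of 46 (37.0%). From HSC to CMP the same windows had kept 60.3, 62.0, 55.7, 57.5 and 48.4% of their HSC peaks, against 56.9% for all autosomal HSC peaks.

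The 5 windows of 1 Mb with the highest kept share held 73.0 to 80%. They were chromosome 5 from 143 to 144 Mb (32 of 40), chromosome 5 from 77 to 78 Mb (39 of 49), chromosome 7 from 134 to 135 Mb (50 of 66), chromosome 10 from 80 to 81 Mb (74 of 99) and chromosome 8 from 124 to 125 Mb (54 of 74). Chromosome 8 thus had a window of each kind within a few Mb. With the windows chosen as extremes of 311, their intervals overstate how far they differ from the rest. The largest number of gained peaks in any 1 Mb window was 8, on chromosome 6 from 136 to 137 Mb. That window held 30 ERY peaks against 41 in CMP. Over all autosomes 7.61% of ERY peaks were gained, and a window picked for its gained count has a high share in part by choice.

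Read along the chromosomes, lost CMP peaks fell into 11607 runs, of which 5734 were single peaks, and kept ones into 11605, of which 5601 were. With shares near 50%, long runs also arise in a random order, so their number is given as a description. Runs of 10 or more consecutive CMP peaks that were all lost numbered 48, and their median length was 397420 bp. Those that were all kept numbered 77, with a median length of 177558 bp. The longest lost run held 17 peaks over 952177 bp at chr14:62193731-63145907, in which 1 gained ERY peak of 812 bp stood alone. Of the 31 HSC peaks in that run, 15 overlapped a CMP peak, against 56.9% of all autosomal HSC peaks. A run of 15 lost peaks covered 385995 bp at chr8:121391012-121777006, with no ERY peak. It lies in the 1 Mb window with the lowest kept share, which its own lost peaks help to lower. Another run of 15 covered 2385413 bp at chr3:154309720-156695132, and a run of 14 covered 972720 bp at chr18:8326379-9299098. In these 4 runs the CMP peaks had median widths of 720 to 772 bp, near the 750 bp of all lost CMP peaks. At most 2 peaks of a run were wider than 1000 bp.

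The fifth lost run, at chr6:52113910-52157107, had other proportions. Ties in peak number were settled for the shorter stretch, which favours a compact run in this last place. The chromosome 6 run held 13 lost CMP peaks in 43198 bp and was the shortest of the 48 lost runs of 10 or more. Its peaks covered 19081 bp in all and had a median width of 1333 bp. The widest, at chr6:52152413-52157107, measured 4695 bp and ranked 3 among all lost peaks by width. The next widest measured 1713 bp (chr6:52140013-52141725), 1607 bp (chr6:52126555-52128161) and 1507 bp (chr6:52125025-52126531), and the narrowest 674 bp. Of the 13 peaks, 10 were wider than 1000 bp, a class of which 78.3% were kept over all autosomes (77.5 to 79.2% of 9469).

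In the chromosome 6 run no ERY peak was called. The nearest one lay 104420 bp before it and the next 139622 bp after it. All 12 HSC peaks in the run overlapped a CMP peak, against 56.9% of all autosomal HSC peaks. The widest HSC peak (4746 bp) lay over the widest CMP peak. The stretch was thus on the HSC and CMP lists at nearly the same positions and absent from the ERY list.

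**Figure D4:**
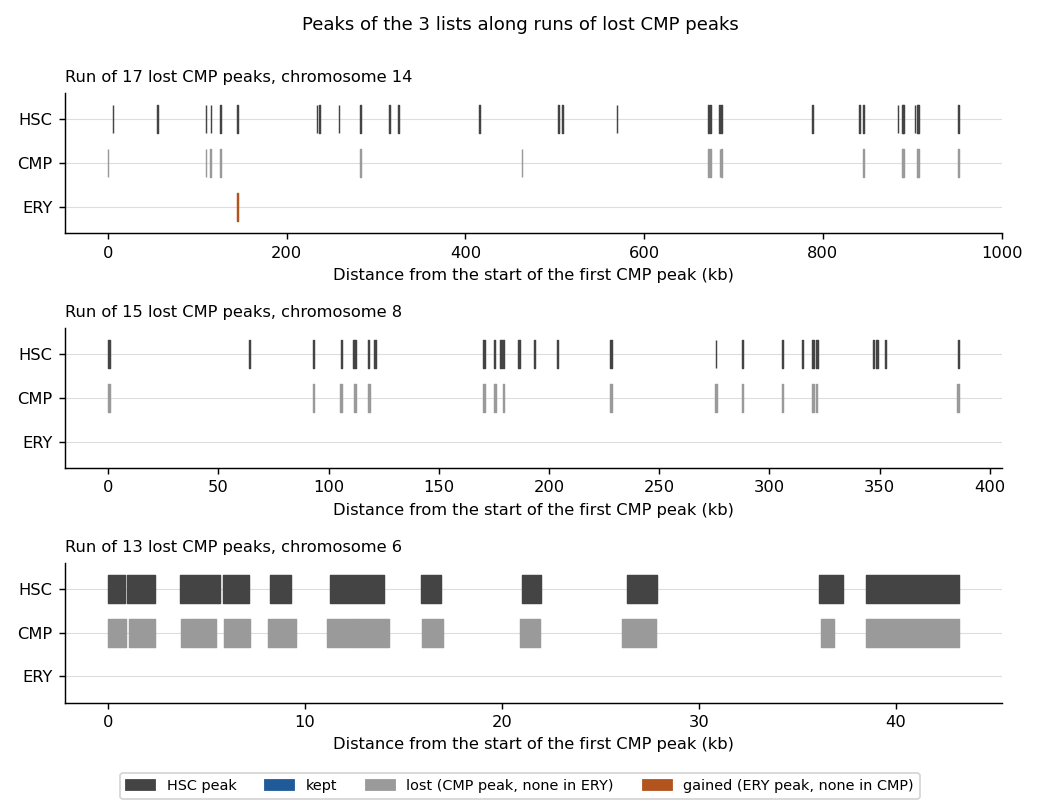
Peaks of the HSC, CMP and ERY lists (rows) along runs of 17, 15 and 13 lost CMP peaks on chromosomes 14, 8 and 6, each bar drawn to scale with a thin outline that keeps narrow peaks visible, against the distance in kb from the start of the first CMP peak; dark bars are HSC peaks, grey bars lost CMP peaks and orange bars gained ERY peaks. The horizontal scales differ: the run on chromosome 6 is 43198 bp long with wide, close peaks, and that on chromosome 14 is 952177 bp long with narrow, scattered ones.

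The longest kept run lay at chr5:116265350-116442907. All 35 of its CMP peaks were kept, and they covered 40618 bp, with widths of 441 to 2220 bp and a median of 1097 bp. The stretch had 35 ERY peaks covering 40768 bp, of which 3 were gained, against 7.61% of all ERY peaks. It also had 52 HSC peaks, of which 31 overlapped a CMP peak, against 56.9% of all autosomal HSC peaks. A run of 19 kept peaks stood at chr8:119724372-119977493, with 24 ERY peaks of which 5 were gained, again against 7.61% of all ERY peaks. Another run of 19 stood at chr7:86266087-86848180, with 18 ERY peaks and none gained.

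A run of 17 kept peaks at chr18:37050197-37388810 had the widest CMP peaks of the 5 longest kept runs, with a median of 1454 bp. They covered 23754 bp in CMP and 17991 bp in ERY, so the peaks stayed on the list and were narrower there. A run of 15 at chr11:107267511-107551413 covered 14273 bp in CMP and 11159 bp in ERY. The kept run on chromosome 8 and the lost run of 15 on the same chromosome were less than 2 Mb apart.

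**Figure D5:**
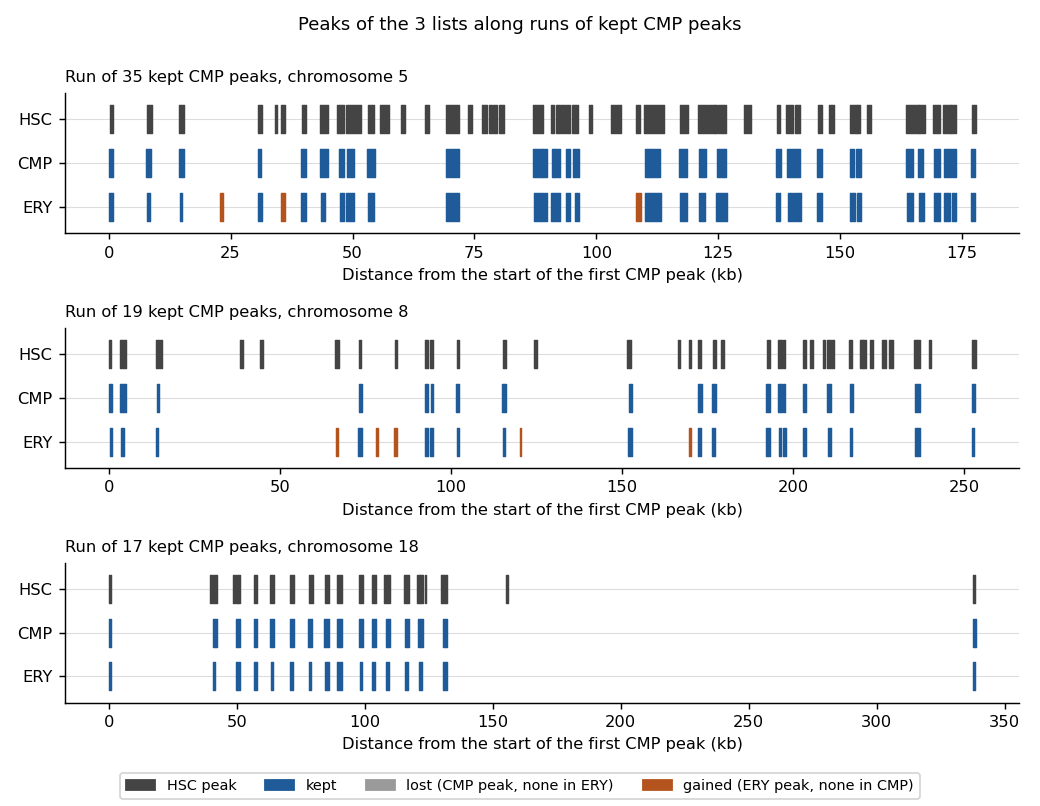
Peaks of the HSC, CMP and ERY lists (rows) along runs of 35, 19 and 17 kept CMP peaks on chromosomes 5, 8 and 18, each bar drawn to scale with a thin outline that keeps narrow peaks visible, against the distance in kb from the start of the first CMP peak; dark bars are HSC peaks, blue bars kept peaks and orange bars gained ERY peaks. Every CMP bar has an ERY bar beneath it, with 3 gained peaks on chromosome 5, 5 on chromosome 8 and none on chromosome 18.

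In windows of 100 kb several of the same stretches stood at the extremes. Windows and runs were drawn from the same kept and lost calls, so a run that fills a window sets its share. The match is therefore not a separate check on the runs. Of 1029 windows of 100 kb with at least 8 CMP peaks, 3 had lost all of them and 19 had kept all. The window of chromosome 6 from 52.1 to 52.2 Mb, which holds the run of 13, kept 0 of 13 (0 to 24.7%). Windows on chromosome 4 from 140.3 to 140.4 Mb and on chromosome 5 from 30.6 to 30.7 Mb each kept 0 of 8 (0 to 36.9%), and the one on chromosome 4 had gained 2 ERY peaks. From HSC to CMP these 3 windows had kept 12 of 13, 8 of 19 and 9 of 11 HSC peaks, against 56.9% of all autosomal HSC peaks. The windows with most peaks that kept all were chromosome 5 from 116.3 to 116.4 Mb with 19, chromosome 18 from 37.1 to 37.2 Mb with 14 and chromosome 5 from 143.5 to 143.6 Mb with 13.

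Of the 10 widest lost peaks, 4 lay within 100 kb of the first peak of any list on their chromosome. The widest of all was chr11:3049311-3059243 (9933 bp), and chr11:2999965-3005132 (5168 bp) came after it. The other two were chr9:3024127-3028044 (3918 bp) and chr9:3018153-3020953 (2801 bp). The widest kept CMP peak stood beside them, at chr11:3080549-3100508. It measured 19960 bp, of which an ERY peak covered 19871 bp. On chromosome 9 a kept CMP peak of 4689 bp at chr9:3028185-3032873 followed the lost ones, and an ERY peak covered 1380 bp of it.

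Away from that end, the widest lost peak was the one in the run of 13 on chromosome 6, and chr7:38967866-38972053 (4188 bp) followed it. The others were chr5:144014598-144017364 (2767 bp), chr19:61299991-61302567 (2577 bp), chr1:90170713-90173256 (2544 bp) and chr1:24269889-24272360 (2472 bp). The one on chromosome 19 lay near the distal end, where the last peak of any list ended at 61334346. All 10 widest lost peaks overlapped an HSC peak, as did 94.0% of all lost CMP peaks. Lost peaks over 3000 bp numbered 5, against 77 kept ones.

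Among kept peaks, chr15:76002446-76012758 came second in width, with 10287 of its 10313 bp under an ERY peak. It was followed by chr17:39979556-39986270 (6373 of 6715 bp under ERY), chr2:174120464-174126823 (5381 of 6360 bp, in 2 ERY peaks) and chr4:141029970-141035650 (5514 of 5681 bp, also in 2). Those at chr8:46106868-46111781 and chr12:20235710-20240375 were under ERY peaks for 4596 of 4914 and 4657 of 4666 bp. The kept peaks at chr13:120276117-120280508 (4392 bp) and chr2:179924546-179928932 (4387 bp) were so for 1878 and 1832 bp, so most of their length had no ERY peak. The one on chromosome 13 ended at the distal end of that chromosome as taken from the lists.

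The widest gained peak was chr12:19722697-19724706 (2010 bp). The next were chr5:136615060-136616953 (1894 bp), chr6:136855240-136856894 (1655 bp), chr1:172872011-172873639 (1629 bp), chr6:115741818-115743404 (1587 bp) and chr17:27541968-27543530 (1563 bp). That at chr6:136855240-136856894 lies in the 1 Mb window with the largest number of gained peaks. The remaining 4 of the 10 widest measured 1416 to 1451 bp. Of the 10, 5 overlapped an HSC peak, close to the share of 51.8% among all gained peaks. They were those on chromosomes 5 (both) and 17, and the ones starting at 136855240 and 116362962 on chromosome 6. The other 5 were on neither the HSC nor the CMP list.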

How the data were processed

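MBD2-enriched libraries were sequenced as 36 bp single-end reads, per the labels' protocols, and the submitters' processing notes name mm9 as the build. Each cell type has 1 list of peaks, which the authors deposited with 3 columns (chromosome, start, end) and no score. The sources used here do not name the peak caller, its threshold or its control. X, Y and the supernatant libraries were not analysed here.

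Overlaps were computed in Python 3.11.15 (numpy 2.4.6, pandas 2.3.3, scipy 1.17.1), tested on simulated data, and gave the same 25110 kept and 2075 gained peaks as bedtools 2.31.1. Coordinates are 1-based. Chromosome ends were taken as the outermost peaks of the 3 lists. Regions were named by rule: the 10 widest peaks of each class, the 5 longest runs, the 5 highest and lowest windows of 1 Mb (40 or more CMP peaks) and 100 kb (8 or more), the 5 windows with most gained peaks and the 5 most divided peaks, of which the text gives the leading ones. Runs with equal numbers of peaks were ordered with the shorter stretch first. The rules and the comparison were chosen with earlier results of these data known. The planned gene feature, gene list and CpG content results need an mm9 annotation or genome and were not run, so regions are given by mm9 position without gene names.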

Additional observations from a re-analysis of the deposited data

How the results depend on the processing

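The kept share was 49.7% with 50% of the CMP peak covered, 48.8% with 50% of both peaks shared, 52.6% within 500 bp, 49.4% in 1 kb bins, 64.8% in the wider 50% of CMP peaks and 41.4% in the wider 50% of both lists. The gained share was, in the same order, 8.05%, 12.2%, 7.27%, 9.94%, 4.38% and 25.5%, and 7.95% without peaks over 3 kb. Removing peaks from the overlapped list lowers sharing by construction; for the other shifts the cause was not tested. Leaving out each chromosome in turn gave 50.9 to 51.4% kept and 7.44 to 7.69% gained. The gap between the widest and narrowest decile was 41.2 points with 50% covered. The gap by neighbours was 9.0 points within 20 kb and 8.57 within 100 kb, and 6.43 within 5 kb in the middle widths. The gap by HSC history was 27.8 points with 50% covered, and the distal difference 0.172 points with 5 Mb zones. No paired analysis was possible because each cell type has 1 library. With no read depth or peak score, how far sensitivity sets the number of lost peaks cannot be told apart from loss of methylation.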

Other observations

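The share of CMP peaks kept after a kept peak and after a lost one differed more at short gaps than at long ones. Both shares were higher at short gaps, so lost peaks followed lost peaks less often there. When a CMP peak was kept, the next one along the chromosome was kept in 66.3% of cases (64.3 to 68.3%) at a gap under 1 kb, and when it was lost, in 51.7% (49.1 to 54.3%). At gaps of 1 to 5 kb the shares were 58.5% (57.0 to 59.9%) and 50.4% (48.8 to 52.1%), and at 5 to 20 kb 54.1% (52.9 to 55.2%) and 49.7% (48.5 to 50.9%). Beyond 100 kb they were 47.5% (45.7 to 49.4%) and 46.1% (44.5 to 47.8%), and the intervals overlapped. Width and neighbour number also go with proximity and were not held constant here.

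Chromosomes with a larger kept share had a smaller gained share (Spearman rho -0.541 over 19 autosomes of the same libraries). Both shares rest on the same overlaps, so part of such a negative relation is built in, and that part was not estimated. On a finer scale, the window on chromosome 6 with 8 gained peaks was followed by 10 windows of 1 Mb with 7. The 4 of these with fewest ERY peaks were chromosome 3 from 37 to 38 Mb, chromosome 14 from 48 to 49 Mb, chromosome 17 from 79 to 80 Mb and chromosome 8 from 87 to 88 Mb, listed from fewest. In the one on chromosome 3 gained peaks were 7 of 17 ERY peaks, against 7.61% of all ERY peaks. Of its 25 CMP peaks 10 were kept, against 51.2% of all CMP peaks. The window was picked for many gained and few ERY peaks, which by itself makes its gained share high.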
